A study of Mus musculus with 18 samples.

Results

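The genes described here encode 8 proteins of the junctions between endothelial cells (ECs): Cdh5, Pecam1, Cldn5, Ocln, Tjp1, Esam, F11r and Jam2. They were chosen by gene symbol, as 8 of the 16248 genes listed in an RNA-seq table of sorted mouse ECs, and all 8 passed the filter on low values that left 13983 genes for testing. The study set out to compare the response to an agonist of STING, a sensor protein of innate immunity, between ECs of 3 tissues of FVB mice, which were sorted 3 h after injection of the agonist, the cyclic dinucleotide cGAMP, or of saline (PBS). Each of the 6 groups held 3 libraries, 18 in all.

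Wild type mice without a tumour gave the normal ECs, taken from mammary fat pads. MMTV-PyMT tumour ECs came from spontaneous breast tumours of MMTV-PyMT mice, in which a viral oncogene is driven in the mammary epithelium by the mouse mammary tumour virus promoter, so ECs were not its intended target. Implanted tumour ECs came from wild type hosts in which cultured MMTV-PyMT tumour cells, set in Matrigel, had grown in the mammary fat pad. The cells of all groups were FVB and had passed CD31 beads and a sort for live CD45-negative, CD31-positive cells. The labels give no ages. They also do not say which animal or experiment each library came from. A legend of the study gives 3 mice per group, drawn from 3 independent experiments. P-values measure only the spread between these libraries, which may be technical.

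Neighbouring ECs are held together by adherens junctions, built on VE-cadherin, and by tight junctions, built on claudins, occludin and the junctional adhesion molecules (JAMs) and anchored to actin by ZO proteins. These contacts set how readily fluid, solutes and leukocytes cross the vessel wall, and in tumours they are often irregular. Epithelial cells build tight junctions from many of the same proteins, occludin and JAM-A among them, whereas VE-cadherin and claudin-5 are known mainly from endothelium.

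Between 9184658 and 12200551 reads could be recovered per library, which differed at most 1.33-fold, and the FPKM values (fragments per kilobase of transcript, here scaled with size factors) are compared on the log2(FPKM + 1) scale. The 10 EC markers were all listed, with summed levels from 475 to 1318 FPKM per library. All 12 epithelial markers were also listed, with sums of 504 to 659 FPKM in normal ECs under PBS, 1218 to 1343 in MMTV-PyMT tumour ECs and 585 to 853 in implanted tumour ECs. The defining marker Epcam ranged from 54.2 to 215 FPKM over the 18 libraries. The 6 mural cell markers summed to 991 to 1105 FPKM in normal ECs under PBS, 221 to 306 in MMTV-PyMT tumour ECs and 202 to 244 in implanted tumour ECs. The leukocyte marker Ptprc (CD45) lay between 0.156 and 9.73 FPKM. Implanted cGAMP 1 had the lowest epithelial sum (337 FPKM) and the highest endothelial sum (1318 FPKM) of all libraries, and implanted cGAMP 2 had the highest leukocyte sum (320.1 FPKM against 67.6 to 149 elsewhere, 7 of 10 markers listed) and fibroblast sum (728 FPKM, 6 of 6 listed). The fibroblast sums of implanted tumour ECs were 283 to 320 FPKM under PBS and 303, 598 and 728 under cGAMP, where 4 of 6 markers rose, and lay between 75.2 and 248 in the other libraries. Lymphatic endothelial markers (4 of 6 listed, Prox1 among them) summed to 18.2 to 93.4 FPKM. Adipocyte markers (2 of 6 listed, Fabp4 and Lpl) summed to 58.4 to 334 FPKM, and Adipoq, Plin1, Cidec and Lep were not listed. The part of these differences in the junction genes was not tested.

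Under cGAMP the junction genes did not move as a block. In normal ECs, Ocln rose and Tjp1 fell, which made 2 of 8 genes passing the test (limma, Benjamini-Hochberg adjusted p under 0.05), against 31.9% of all tested genes (13.7% higher, 18.2% lower). In implanted tumour ECs, Ocln and F11r rose and none fell, again 2 of 8, against 39.1% of all genes (20.3% higher, 18.8% lower). In MMTV-PyMT tumour ECs, 0 of 8 passed in limma, against 12% of all genes (7.42% higher, 4.57% lower). Cldn5, Ocln and F11r reached an unadjusted p under 0.05 there, as did 26.5% of all genes, and limma-voom on recovered reads called 1 gene, F11r. Over the 8 genes the log2 changes had medians of -0.11 (normal), 0.26 (MMTV-PyMT) and 0.22 (implanted), beside -0.045, -0.037 and -0.014 over all genes.

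**Figure D1:**
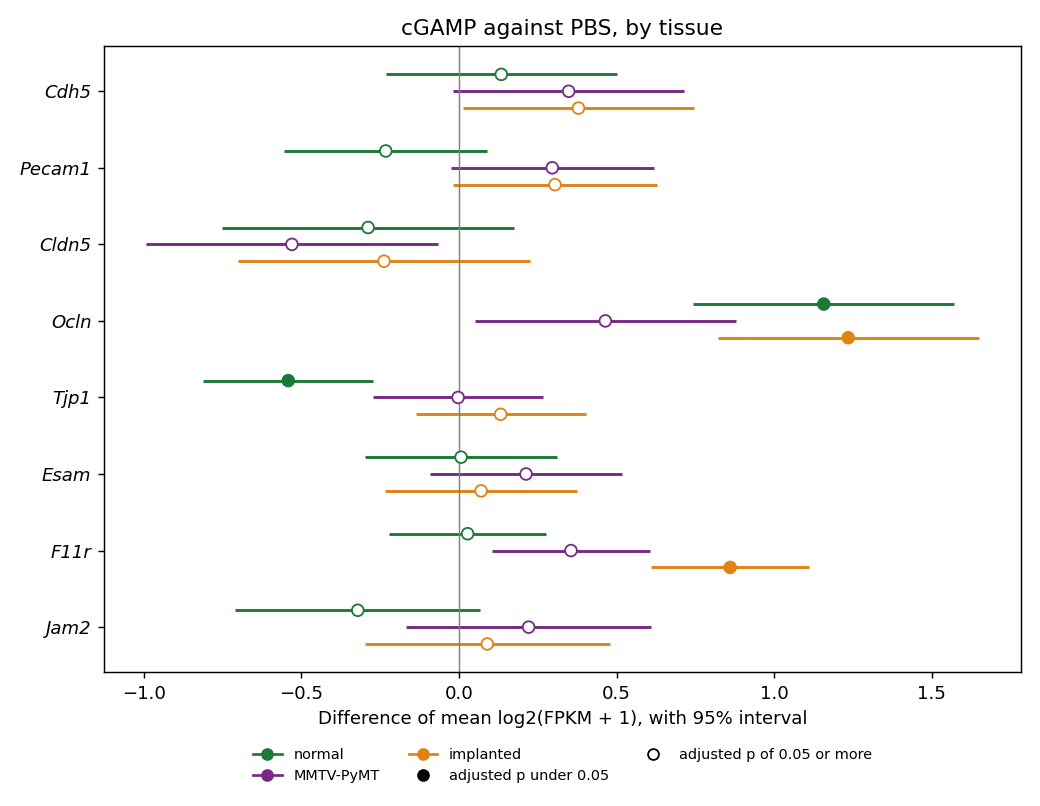
Change of each junction gene under cGAMP. The x axis is the difference of mean log2(FPKM + 1), cGAMP minus PBS, with its 95% interval from limma, 3 libraries per group. Filled points passed at an adjusted p under 0.05: Ocln in normal (1.16) and implanted tumour ECs (1.24), Tjp1 in normal ECs (-0.54) and F11r in implanted tumour ECs (0.86).

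Between tissues, larger shares passed. Under PBS, 6 of 8 genes differed between MMTV-PyMT tumour and normal ECs, against 56.5% of all genes (29.8% higher, 26.6% lower): Ocln was higher and Pecam1, Cldn5, Tjp1, Esam and Jam2 were lower. Implanted tumour ECs differed from normal ECs in 4 of 8, against 48.7% (25% higher, 23.6% lower), with Cdh5 and F11r higher and Cldn5 and Jam2 lower. Between the tumour types, 7 of 8 differed, against 45.5% (20.8% higher, 24.6% lower), with Cdh5, Pecam1, Tjp1, Esam and F11r higher and Ocln and Jam2 lower in implanted tumour ECs. The median log2 difference of the 8 genes was -0.69, -0.06 and 0.48 in these comparisons, and that of all genes 0.016, 0.010 and -0.0097. Of the 10 EC markers, 1 was higher and 5 lower in MMTV-PyMT than in normal ECs, 6 higher and 2 lower in implanted than in normal ECs, and 8 higher and 1 lower in implanted than in MMTV-PyMT tumour ECs, and their summed level was 715 to 821 FPKM in normal, 475 to 587 in MMTV-PyMT and 865 to 1094 in implanted libraries under PBS. Their part in the junction gene differences was not tested. Both tumour types were set against the same normal libraries, and the comparison of the tumour types reuses their PBS libraries. All these PBS libraries are also the controls of the cGAMP comparisons. In these bulk samples, fewer cells of a type and less RNA per cell cannot be told apart.

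**Figure D2:**
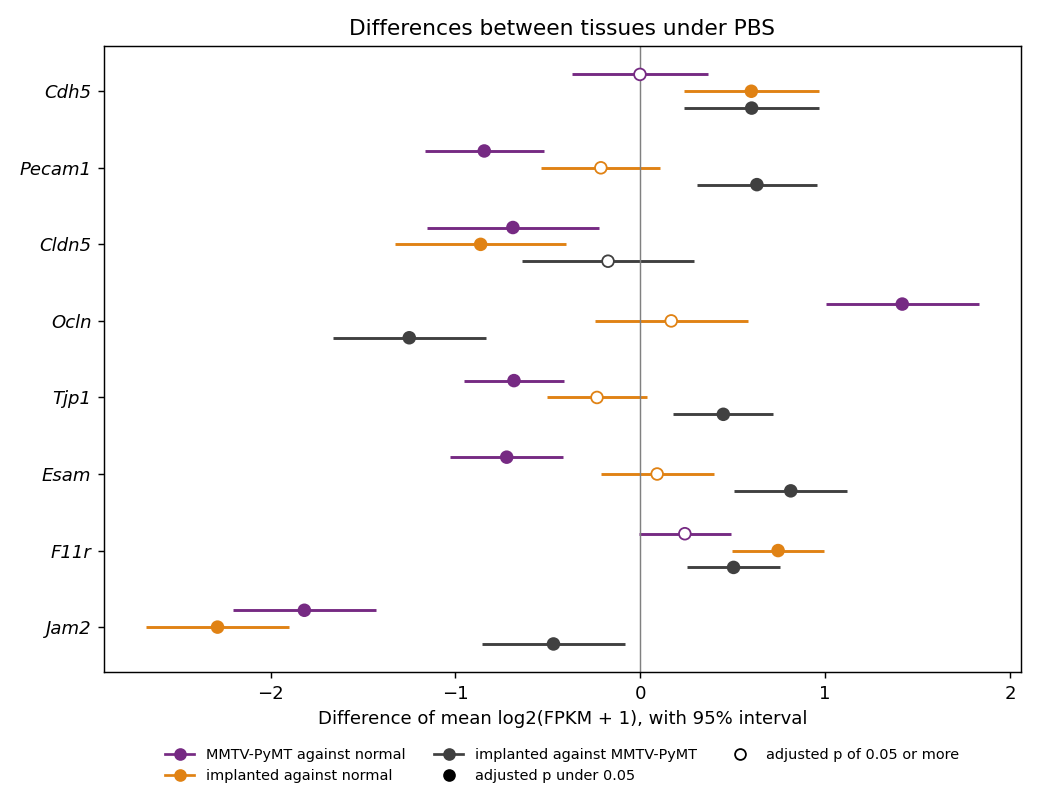
Differences of the junction genes between tissues under PBS. The x axis is the difference of mean log2(FPKM + 1) with its 95% interval from limma, 3 libraries per group, and filled points passed at an adjusted p under 0.05. Jam2 lay farthest below 0 in both tumour types (-1.82 and -2.29), and Ocln was higher in MMTV-PyMT tumour ECs than in both other tissues (1.42 against normal, with -1.25 for implanted against MMTV-PyMT).

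Cdh5 (ENSMUSG00000031871.9, chr8:104101625-104144511, plus strand, 13 exon blocks) encodes VE-cadherin, the adhesive core of endothelial adherens junctions. It had the highest level of the 8 genes, with 12628 to 27473 reads per library. Under PBS, Cdh5 measured 265, 316 and 293 FPKM in normal ECs, 325, 277 and 271 in MMTV-PyMT and 438, 502 and 391 in implanted tumour ECs. Every implanted library lay above every library of the other tissues, which overlapped each other. The difference from normal ECs was 0.60 ± 0.17 (log2, SE, adjusted p = 0.00879), 1.52-fold in mean FPKM, and that from MMTV-PyMT tumour ECs was 0.60 ± 0.17 (adjusted p = 0.00978). Under quantile normalization the first of these was 0.36 with an adjusted p of 0.0546, and adjusted p ranged from 0.00154 to 0.0546 over 26 alternatives. MMTV-PyMT and normal ECs differed by -0.0018 (95% interval -0.37 to 0.36).

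After cGAMP, Cdh5 stood at 285, 348 and 327 FPKM in normal ECs, 310.2, 422 and 386 in MMTV-PyMT and 782, 448 and 541 in implanted tumour ECs. The cGAMP and PBS libraries overlapped in every tissue, and implanted cGAMP 1 stood alone at 782. None of the 3 changes passed: 0.13 (95% interval -0.23 to 0.50) in normal ECs, 0.35 (-0.018 to 0.71) in MMTV-PyMT and 0.38 (0.013 to 0.75, adjusted p = 0.0942) in implanted tumour ECs. The last value was 0.56 (adjusted p = 0.0161) without implanted cGAMP replicate 2 and -0.17 under quantile normalization, with adjusted p from 0.0161 to 0.748 over the alternatives.

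Pecam1 (ENSMUSG00000020717.19, chr11:106654217-106750628, minus strand, 17 exon blocks) encodes CD31, an immunoglobulin-family adhesion molecule of endothelial borders. Cells were sorted on CD31, so its level was subject to selection in all groups. Under PBS it measured 258, 291 and 292 FPKM in normal ECs, 177, 153 and 138 in MMTV-PyMT and 237, 268 and 221 in implanted tumour ECs. All MMTV-PyMT libraries lay below all others, while normal and implanted overlapped. MMTV-PyMT tumour ECs were lower than normal ECs by -0.84 ± 0.15 (log2, adjusted p = 0.000214), and implanted exceeded MMTV-PyMT tumour ECs by 0.63 ± 0.15 (adjusted p = 0.00323). Implanted against normal gave -0.21 (95% interval -0.54 to 0.11), and -0.40 (adjusted p = 0.0182) under scaling by total reads, with adjusted p from 0.0182 to 0.507 over the alternatives.

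With cGAMP, the Pecam1 levels were 252, 222 and 242 FPKM in normal ECs, 158, 222 and 198 in MMTV-PyMT and 386, 251 and 275 in implanted tumour ECs. All normal cGAMP libraries lay below all normal PBS libraries, but the change of -0.23 ± 0.15 had an adjusted p of 0.264. In MMTV-PyMT and implanted tumour ECs the libraries overlapped, with values of 0.30 ± 0.15 (adjusted p = 0.231) and 0.30 ± 0.15 (adjusted p = 0.125). The implanted value passed without implanted cGAMP replicate 2 (0.43, adjusted p = 0.0429), with adjusted p up to 0.944 over the alternatives.

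**Figure D3:**
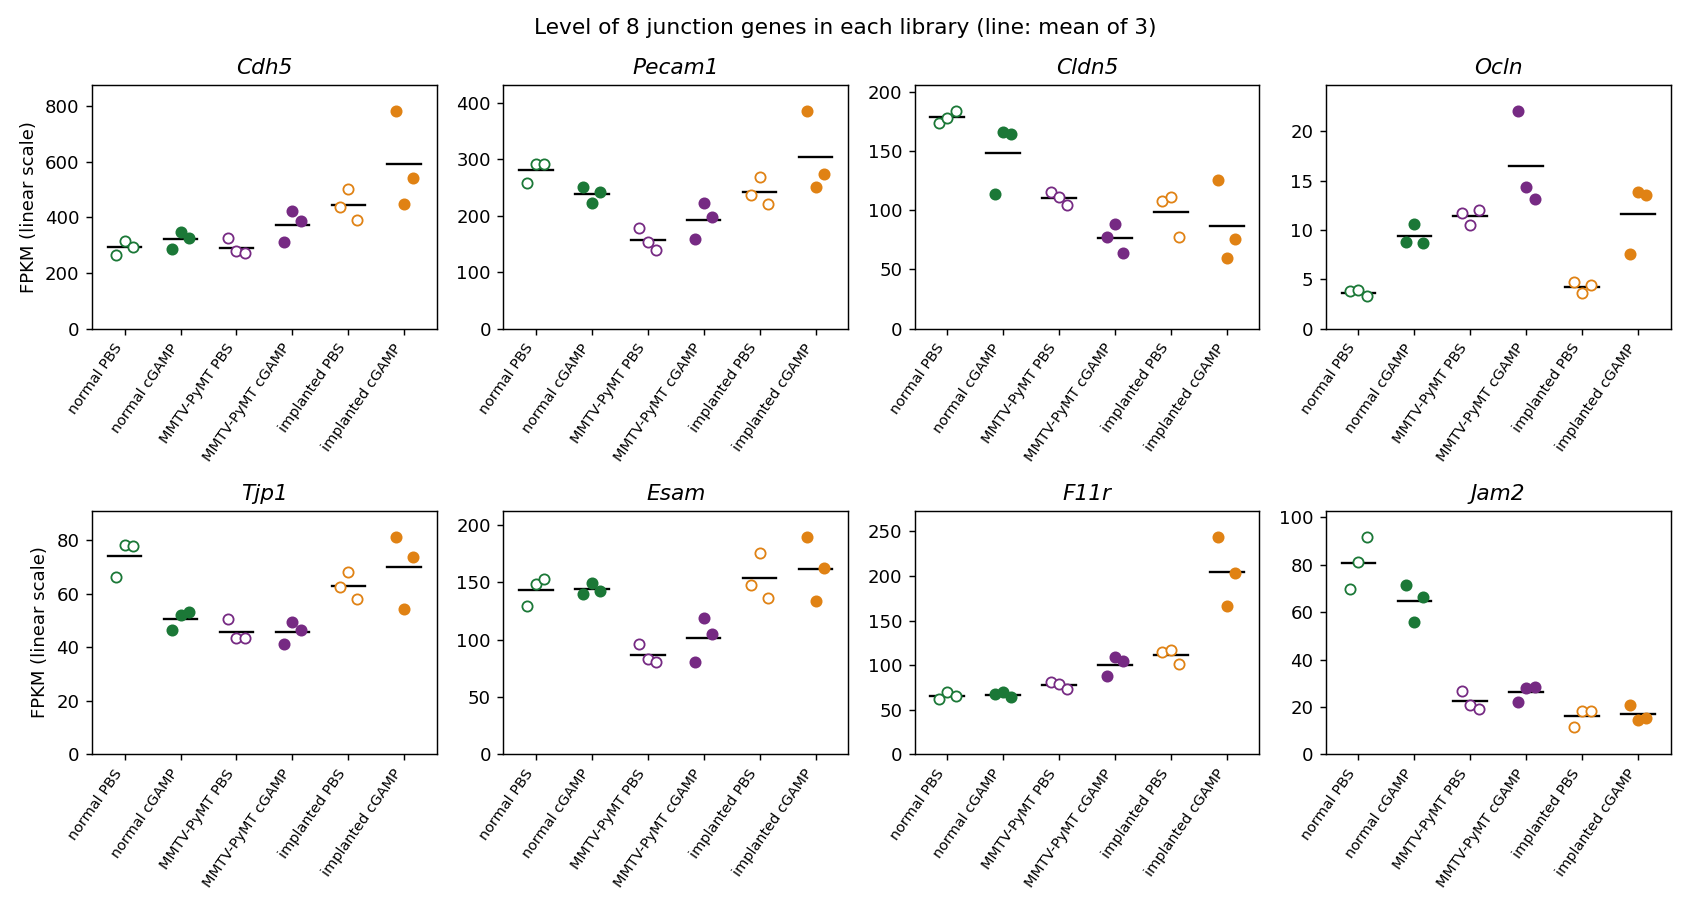
Level of each junction gene in all 18 libraries. The y axis is FPKM on a linear scale from 0 and each point is 1 library, open for PBS and filled for cGAMP, with the mean of 3 as a line. The 3 implanted cGAMP libraries of F11r (166 to 244) lay above all others, and Jam2 was at 55.8 or above in normal and at 28.3 or below in tumour libraries.

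Cldn5 (ENSMUSG00000041378.2, chr16:18776847-18778262, plus strand, 1 exon) encodes claudin-5, the main claudin of endothelial tight junctions. In PBS libraries it measured 174, 178 and 184 FPKM in normal ECs, 116, 112 and 104 in MMTV-PyMT and 108, 111 and 77.5 in implanted tumour ECs. Normal ECs were above both tumour types without overlap, and the tumour types overlapped. The log2 difference from normal was -0.69 ± 0.22 (adjusted p = 0.0134) in MMTV-PyMT and -0.86 ± 0.22 (adjusted p = 0.00380) in implanted tumour ECs, 0.618 and 0.554 times the normal mean. Implanted against MMTV-PyMT was -0.17 (95% interval -0.64 to 0.29).

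After cGAMP, Cldn5 measured 114, 166 and 165 FPKM in normal ECs, 77.8, 88.5 and 64.2 in MMTV-PyMT and 125, 59.4 and 76.0 in implanted tumour ECs. The cGAMP libraries lay below the PBS libraries without overlap in normal and MMTV-PyMT, and overlapped them in implanted tumour ECs. None of these changes passed, with -0.29 ± 0.22 (adjusted p = 0.339) for normal, -0.53 ± 0.22 (adjusted p = 0.130) for MMTV-PyMT and -0.24 ± 0.22 (adjusted p = 0.413) for implanted tumour ECs. In MMTV-PyMT tumour ECs, 4 of 26 alternatives called it lower (adjusted p from 0.0266 to 0.344), and in implanted tumour ECs 3 of 26 did (0.0102 to 0.997). Within a library, the level of Cldn5 per Cdh5 was 0.564 to 0.656 in normal PBS, 0.399 to 0.504 in normal cGAMP, 0.356 to 0.402 in MMTV-PyMT PBS, 0.166 to 0.251 in MMTV-PyMT cGAMP, 0.198 to 0.247 in implanted PBS and 0.133 to 0.160 in implanted cGAMP libraries. This ratio was lower under cGAMP in each tissue without overlap, as a description chosen after the values were seen and with no test. Tjp1 per Cdh5 was also lower without overlap in normal (0.248 to 0.265 under PBS, 0.149 to 0.163 under cGAMP) and MMTV-PyMT tumour ECs. So were Esam per Cdh5 in each tumour type, and Pecam1 and Jam2 per Cdh5 in normal ECs. F11r per Cdh5 was higher in implanted tumour ECs (0.233 to 0.262, then 0.312 to 0.377). Elsewhere these 5 ratios overlapped.

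Ocln (ENSMUSG00000021638.12, chr13:100496507-100552718, minus strand, 10 exon blocks) encodes occludin, a tight junction membrane protein of epithelia and of tight endothelia. It was the lowest of the 8 genes, with 133 to 1009 reads per library, and had the largest cGAMP changes of the 8 in normal and implanted tumour ECs on the log2(FPKM + 1) scale. The PBS libraries of normal ECs measured 3.77, 3.87 and 3.28 FPKM, and the cGAMP libraries 8.77, 10.6 and 8.72. In implanted tumour ECs, PBS gave 4.69, 3.56 and 4.43 and cGAMP gave 7.53, 13.8 and 13.5. The cGAMP libraries lay above the PBS libraries in both tissues without overlap, with implanted cGAMP 1 the lowest of its group. Ocln rose by 1.16 ± 0.20 in normal ECs (log2, adjusted p = 0.000377), 2.57-fold in mean FPKM, and by 1.24 ± 0.20 in implanted tumour ECs (adjusted p = 0.000109), 2.75-fold. Both calls held in all 26 alternatives, with adjusted p up to 0.00278 and 0.00665.

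In MMTV-PyMT tumour ECs, Ocln measured 11.7, 10.5 and 11.97 FPKM under PBS and 22.05, 14.3 and 13.1 under cGAMP. The groups did not overlap, but MMTV-PyMT cGAMP 1 stood apart at 22.05, and the change of 0.46 ± 0.20 had an adjusted p of 0.138. The difference of the cGAMP effect did not pass between MMTV-PyMT and normal ECs (-0.69 ± 0.28, adjusted p = 0.135) or between implanted and MMTV-PyMT tumour ECs (0.77 ± 0.28, adjusted p = 0.0878). Both passed when MMTV-PyMT cGAMP replicate 1 was left out (-0.91, adjusted p = 0.0338, and 0.99, adjusted p = 0.0206) and when implanted cGAMP replicate 1 was left out (-0.69, adjusted p = 0.0457, and 1.03, adjusted p = 0.00801). Over all alternatives, adjusted p ranged from 0.0338 to 0.292 and from 0.00801 to 0.217.

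Under PBS, Ocln was higher in MMTV-PyMT tumour ECs than in normal ECs by 1.42 ± 0.20 (log2, adjusted p = 1.72e-05), 3.13-fold, and lower in implanted than in MMTV-PyMT tumour ECs by -1.25 ± 0.20 (adjusted p = 0.000106). Implanted and normal ECs overlapped and differed by 0.17 (95% interval -0.25 to 0.58). Epcam, an epithelial adhesion molecule, moved with these differences: it measured 54.2 to 68.5 FPKM in normal ECs, 186 to 213 in MMTV-PyMT and 81.6 to 109 in implanted tumour ECs under PBS, and MMTV-PyMT exceeded normal ECs by 1.75 ± 0.19 (adjusted p = 1.64e-06). Of the 12 epithelial markers, 8 were higher and 1 lower in that comparison. Their part in the tissue differences of Ocln was not tested.

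Under cGAMP, Epcam changed by 0.33 ± 0.19 (adjusted p = 0.201) in normal ECs, where all 3 cGAMP libraries lay above the PBS libraries, and 0.16 ± 0.19 (adjusted p = 0.546) in implanted tumour ECs, and the epithelial list had 0 higher and 2 lower genes in normal and 0 higher and 3 lower in implanted tumour ECs. Within a library, the FPKM ratio of Ocln to Epcam was 0.0551 to 0.0672 in normal PBS, 0.0496 to 0.0627 in MMTV-PyMT PBS and 0.0408 to 0.0443 in implanted PBS libraries. It was 0.113 to 0.136, 0.0758 to 0.102 and 0.0983 to 0.107 in the cGAMP libraries of the same tissues. So the ratios of normal and MMTV-PyMT overlapped under PBS, where levels of Ocln did not, and each cGAMP group lay above all PBS libraries. The ratio was chosen after the values were seen and carries no test, and it does not show in which cells of the sort the transcripts lay.

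**Figure D4:**
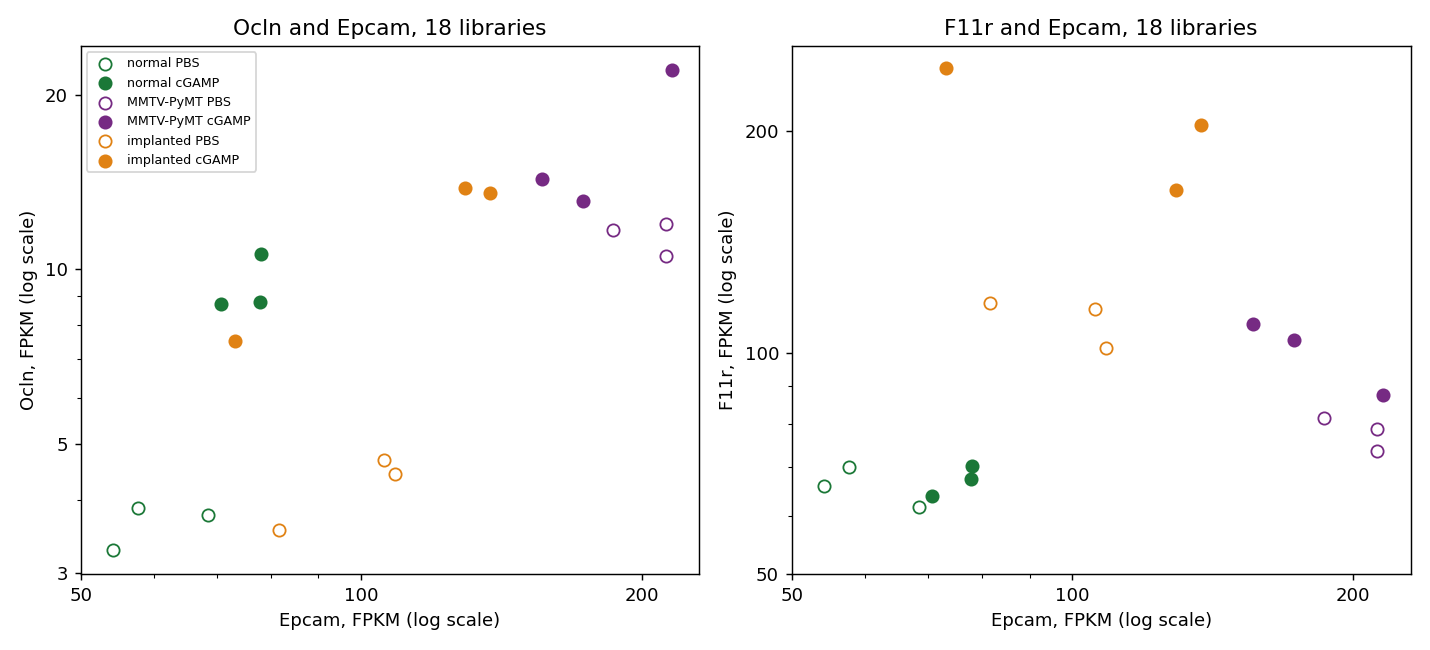
Levels of Ocln (left) and F11r (right) against Epcam, an epithelial marker, in 18 libraries. Both axes are FPKM on log scales, and open points are PBS and filled points cGAMP libraries. Epcam was 54.2 to 68.5 in normal PBS and 70.8 to 78.1 in normal cGAMP libraries, and overlapped between the implanted groups. The cGAMP libraries of normal (Ocln 8.72 to 10.6) and implanted tumour ECs (7.53 to 13.8) lay above PBS libraries (3.28 to 4.69), and F11r was highest in implanted cGAMP libraries (166 to 244).

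Tjp1 (ENSMUSG00000030516.14, chr7:65296165-65527781, minus strand, 31 exon blocks) encodes ZO-1, a cytoplasmic scaffold that ties tight junction proteins to actin. Normal ECs measured 66.4, 78.3 and 77.8 FPKM under PBS and 46.5, 51.9 and 53.3 under cGAMP. All 3 cGAMP libraries lay below all PBS libraries, and Tjp1 fell by 0.54 ± 0.13 on the log2 scale (adjusted p = 0.00431), to 0.682 times the PBS mean. The call held in all 26 alternatives (adjusted p up to 0.0216).

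In tumour ECs the change of Tjp1 under cGAMP did not pass. MMTV-PyMT tumour ECs held 50.5, 43.5 and 43.3 FPKM under PBS and 41.3, 49.3 and 46.6 under cGAMP, a change of -0.0026 (95% interval -0.27 to 0.27). Implanted tumour ECs held 62.5, 68.1 and 58.0 under PBS and 81.3, 54.3 and 73.9 under cGAMP, a change of 0.13 (-0.14 to 0.40), whose sign turned under quantile normalization (-0.28, adjusted p = 0.0478) and scaling by total reads (-0.18), and which passed as a rise without implanted cGAMP replicate 2 (0.30, adjusted p = 0.0376), with adjusted p up to 0.946 over the alternatives. The groups overlapped in both tumour types. The difference of the cGAMP effect between implanted tumour and normal ECs was 0.67 ± 0.18 (adjusted p = 0.0152), but 0.35 (adjusted p = 0.126) under quantile normalization and 0.37 (adjusted p = 0.105) under scaling by total reads. Adjusted p ranged from 0.000928 to 0.126 over the alternatives. That between MMTV-PyMT tumour and normal ECs was 0.54 ± 0.18 (adjusted p = 0.0755), which passed in 4 of 26 alternatives (adjusted p from 0.0234 to 0.159): quantile normalization, the compared groups alone, without implanted cGAMP replicate 1 (0.54, adjusted p = 0.0440) and without implanted cGAMP replicate 2 (0.54, adjusted p = 0.0234). The difference between the tumour types was 0.13 (95% interval -0.25 to 0.52).

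Under PBS, the level of Tjp1 in MMTV-PyMT tumour ECs was below that of both other tissues without overlap, by -0.68 ± 0.13 against normal ECs (adjusted p = 0.000284), and implanted exceeded MMTV-PyMT tumour ECs by 0.45 ± 0.13 (adjusted p = 0.00914). Implanted and normal ECs overlapped and differed by -0.23 ± 0.13 (adjusted p = 0.142), a value that passed under quantile normalization (-0.42, adjusted p = 0.00421) and scaling by total reads (-0.42, adjusted p = 0.00589), with adjusted p from 0.00421 to 0.337 over the alternatives.

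F11r, Jam2 and Esam encode related immunoglobulin-family adhesion molecules of cell borders. F11r (ENSMUSG00000038235.4, chr1:171437535-171464603, plus strand, 9 exon blocks) encodes JAM-A, which organises tight junctions in endothelium and epithelium and takes part in leukocyte passage. Implanted tumour ECs measured 115, 117 and 102 FPKM under PBS and 244, 166 and 204 under cGAMP. The cGAMP libraries lay above those of all other groups. F11r rose by 0.86 ± 0.12 (log2, adjusted p = 2.64e-05), 1.84-fold in mean FPKM, and the call held in all 26 alternatives, although quantile normalization gave 0.40 (adjusted p = 0.00626).

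In normal ECs, F11r stood at 61.7, 69.9 and 65.9 FPKM under PBS and 67.3, 70.2 and 63.9 under cGAMP, a change of 0.028 (95% interval -0.22 to 0.28) with overlapping libraries. In MMTV-PyMT tumour ECs it stood at 81.6, 78.9 and 73.5 and at 87.5, 109.6 and 104, which did not overlap, and the change of 0.36 ± 0.12 had an adjusted p of 0.0623. That value passed in 4 of 26 alternatives (adjusted p from 0.0227 to 0.246), among them the fits without MMTV-PyMT cGAMP replicate 1 (0.45), without implanted cGAMP replicate 1 (0.36) and without implanted cGAMP replicate 2 (0.36). The cGAMP effect in implanted tumour ECs exceeded that in normal ECs by 0.83 ± 0.17 (adjusted p = 0.00254), and held in all 26 alternatives. It exceeded that in MMTV-PyMT tumour ECs by 0.51 ± 0.17 (adjusted p = 0.0638), which passed in 2 of 26 alternatives, the filter on a mean FPKM of 5 (adjusted p = 0.0485) and without implanted cGAMP replicate 2 (0.65, adjusted p = 0.00827), with adjusted p up to 0.428.

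Of the 8 genes, the differences of the cGAMP effect passed for 2 between implanted tumour and normal ECs (Tjp1 and F11r, against 18.6% of all genes), for 0 between MMTV-PyMT tumour and normal ECs (8.37% of all genes) and for 0 between implanted and MMTV-PyMT tumour ECs (11.1%) in limma. At an unadjusted p under 0.05 the counts were 3, 3 and 2 of 8, against 32.2%, 24.2% and 24.7% of all genes, shares near those of the 8 genes (37.5%, 37.5% and 25%). In limma-voom they were 2, 0 and 0.

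Already under PBS, implanted tumour ECs exceeded normal ECs in F11r by 0.75 ± 0.12 (adjusted p = 7.71e-05) and MMTV-PyMT tumour ECs by 0.50 ± 0.12 (adjusted p = 0.00260), without overlap. MMTV-PyMT lay above normal libraries without overlap as well, but the difference of 0.24 ± 0.12 had an adjusted p of 0.0929. It passed in 3 of 26 alternatives (adjusted p from 0.0181 to 0.241). These were the compared groups alone (0.0181) and the fits without implanted cGAMP replicate 1 (0.0441) or replicate 2 (0.0425). Relative to Cdh5 in the same library, F11r was 0.312 to 0.377 in implanted cGAMP and 0.195 to 0.285 in all other libraries. F11r per Epcam ranged from 0.346 to 1.43 in the other groups and tissues and from 1.29 to 3.33 in implanted cGAMP libraries, so these ranges overlapped. Epithelial cells also make JAM-A. Of the 3 platelet markers tested, 2 were higher and 0 lower under cGAMP in implanted tumour ECs. Their sums there were 2.55 to 2.65 FPKM under PBS and 5.35 to 10.03 under cGAMP. In normal ECs, where the change of F11r did not pass, these sums were 7.73 to 12.07 under PBS and 5.82 to 12.18 under cGAMP. The part of epithelial and platelet transcripts in the level of F11r was not tested.

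Jam2 (ENSMUSG00000053062.16, chr16:84774123-84825928, plus strand, 11 exon blocks) encodes JAM-B, a ligand for leukocyte integrins at endothelial borders. It separated the tissues most widely of the 8 genes, with a 5.05-fold range between group means. Under PBS, Jam2 measured 69.7, 81.3 and 91.8 FPKM in normal ECs, 26.8, 21.02 and 19.2 in MMTV-PyMT and 11.5, 18.2 and 18.3 in implanted tumour ECs. The 3 tissues did not overlap. The log2 difference from normal was -1.82 ± 0.18 (adjusted p = 7.14e-07) in MMTV-PyMT and -2.29 ± 0.18 (adjusted p = 6.17e-08) in implanted tumour ECs, 0.276 and 0.198 times the normal mean. Implanted against MMTV-PyMT was -0.47 ± 0.18 (adjusted p = 0.0465), which passed in 15 of 26 alternatives (adjusted p from 0.00617 to 0.239). It failed with the replicate block (adjusted p = 0.0640), without implanted PBS replicate 1 (-0.26, adjusted p = 0.239), without MMTV-PyMT PBS replicate 1 (-0.34, adjusted p = 0.184) and without MMTV-PyMT PBS replicate 2 (-0.50, adjusted p = 0.0708), and, with values just past the threshold, in the fit with no filter (0.0506), with the compared groups alone (0.0674) and in 5 fits that left out a library of another group.

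Markers of several other cell types were lower in both tumour types than in normal ECs, as Jam2 was. Myh11, a smooth muscle myosin, measured 69.4 to 85.3 FPKM in normal ECs, 3.39 to 5.998 in MMTV-PyMT and 3.04 to 4.08 in implanted tumour ECs under PBS, and all 6 mural markers were lower in each tumour type than in normal ECs. Between the tumour types, where Jam2 also differed, 1 mural marker was higher and 0 lower in implanted tumour ECs in limma (median log2 difference 0.024). In each tumour type, 3 of 4 lymphatic endothelial and 3 of 3 platelet markers tested were lower than in normal ECs as well. So were Fabp4 and Lpl, the 2 genes of the adipocyte list that were tested. Adipoq, Plin1, Cidec and Lep were not listed, so these 2 genes cannot show whether adipocyte transcripts or those of the ECs themselves were lower. Of all genes, 26.6% were lower in MMTV-PyMT and 23.6% in implanted tumour ECs. In implanted tumour ECs, 1 lymphatic marker was higher, and the lymphatic sums under PBS (48.8 to 66.3 FPKM) overlapped those of normal ECs (48.2 to 55.2). The part of these markers in the difference was not tested. cGAMP left no passing change of Jam2: normal ECs held 71.3, 55.8 and 66.5 FPKM (-0.32, 95% interval -0.71 to 0.067), MMTV-PyMT tumour ECs 22.1, 27.9 and 28.3 (0.22, -0.17 to 0.61) and implanted tumour ECs 21.01, 14.6 and 15.4 (0.090, -0.30 to 0.48). The cGAMP and PBS libraries overlapped in each tissue.

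Esam (ENSMUSG00000001946.14, chr9:37528078-37538319, plus strand, 10 exon blocks) encodes endothelial cell-selective adhesion molecule, found at endothelial tight junctions and on platelets. Under PBS it measured 129, 148 and 153 FPKM in normal ECs, 96.2, 82.7 and 80.9 in MMTV-PyMT and 148, 176 and 136 in implanted tumour ECs. MMTV-PyMT libraries lay below all others, at -0.72 ± 0.14 against normal (adjusted p = 0.000503), and implanted exceeded MMTV-PyMT tumour ECs by 0.81 ± 0.14 (adjusted p = 0.000302). Implanted and normal ECs overlapped (0.091, 95% interval -0.21 to 0.40). The platelet list had 3 of 6 markers listed, with summed levels of 7.73 to 12.1 FPKM in normal and at most 2.65 in tumour libraries under PBS, and their part in the level of Esam was not tested.

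With cGAMP, Esam stood at 140.1, 149 and 142 FPKM in normal ECs, 80.9, 119 and 105 in MMTV-PyMT and 189.8, 134 and 162 in implanted tumour ECs. Libraries overlapped in each tissue. The changes were 0.0068 (95% interval -0.30 to 0.31), 0.21 (-0.092 to 0.52) and 0.070 (-0.23 to 0.38), and none passed. In implanted tumour ECs the sign turned under quantile normalization (-0.47, adjusted p = 0.00637) and scaling by total reads (-0.25, adjusted p = 0.107), with adjusted p from 0.00637 to 0.971 over the alternatives.

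Together the 8 genes summed to 1119 ± 79.0 FPKM (mean ± SD, n = 3) in normal PBS, 802 ± 73.9 in MMTV-PyMT PBS and 1132 ± 128 in implanted PBS libraries, and to 1043 ± 50.2, 933 ± 127 and 1446 ± 356 under cGAMP. Since FPKM are per length, shares of this sum can be compared between genes. In normal PBS libraries Cdh5 made up 26.0 ± 0.95% of it, Pecam1 25.1 ± 0.13%, Cldn5 16.0 ± 0.83%, Esam 12.8 ± 0.32% and Ocln 0.327 ± 0.043%. In implanted cGAMP libraries the share of Cdh5 was 40.5 ± 1.8%, that of F11r 14.3 ± 0.89% (5.89 ± 0.19% in normal PBS), that of Cldn5 5.87 ± 0.85% and that of Jam2 1.18 ± 0.081% (7.22 ± 0.60% in normal PBS). Implanted PBS libraries held Cdh5 at 39.1 ± 0.50%, Esam at 13.5 ± 0.39%, F11r at 9.85 ± 0.51%, Cldn5 at 8.70 ± 0.97% and Jam2 at 1.43 ± 0.40%. The order thus differed: Cldn5 came next after Cdh5 and Pecam1 in normal PBS, Esam in implanted PBS and F11r in implanted cGAMP libraries.

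The order of the 6 groups differed from gene to gene. Cdh5, Pecam1 and Esam each had their highest mean in implanted cGAMP libraries, and of the neighbours in their orders only normal PBS and MMTV-PyMT cGAMP of Esam did not overlap. Cldn5, Tjp1 and Jam2 had their highest mean in normal PBS libraries. For Jam2, the gap between normal cGAMP (55.8 to 71.3 FPKM) and the highest tumour group was the only one without overlap. For F11r, the 2 lowest groups overlapped (normal PBS and cGAMP), as did implanted PBS and MMTV-PyMT cGAMP, and the other neighbours did not.

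Over the 18 libraries, Pearson's r of log2(FPKM + 1) was 0.94 for Pecam1 with Esam, 0.86 for Pecam1 with Tjp1, 0.82 for Tjp1 with Esam, 0.92 for Cdh5 with F11r and 0.75 for Cldn5 with Jam2 (Spearman's rho 0.85, 0.87, 0.84, 0.85 and 0.70). Ocln had negative r with Pecam1 (-0.53), Cldn5 (-0.59), Tjp1 (-0.69) and Esam (-0.57), and 0.75 with Epcam, whereas Pecam1, Esam and Tjp1 had -0.81, -0.81 and -0.72 with Epcam. Jam2 and Cldn5 reached 0.96 and 0.79 with Myh11, and had -0.64 and -0.70 with Epcam. These 28 pairs are given as description, since the libraries fall into 6 groups and share tissue, treatment, scaling and cell makeup.

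**Figure D5:**
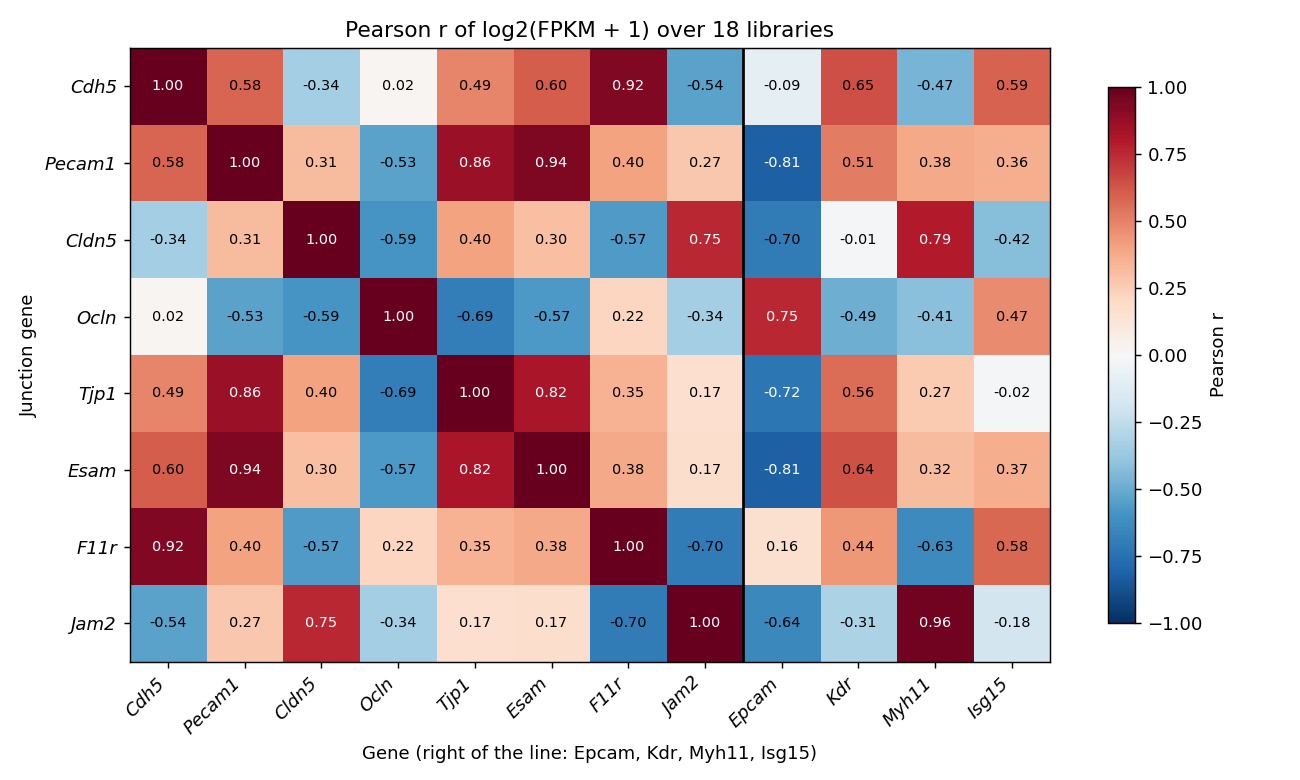
Pearson's r of log2(FPKM + 1) over 18 libraries between the 8 junction genes (left of the line) and with Epcam, Kdr, Myh11 and Isg15 (right of the line), which stand for epithelium, endothelium, mural cells and interferon-induced genes. Pecam1, Tjp1 and Esam formed a positive block (0.82 to 0.94), and Ocln was the one gene with r above 0.7 with Epcam (0.75).

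Among all tested genes, those most like a member over the 18 libraries were Tcf4, Igfbp7 and Scarf1 for Cdh5 (r = 0.97 each), Map3k3, Capn2 and Icam2 for Pecam1 (0.96 each) and Macf1, Itga9 and Slc44a2 for Esam (0.97, 0.97 and 0.95). Parva, Eid2b and Kmt2e were nearest to Cldn5 (0.92, 0.91 and 0.91), Sdc4, Cdcp1 and Tiam2 to Ocln (0.96, 0.95 and 0.93) and Ro60, Dipk2b and Ssh1 to Tjp1 (0.97, 0.95 and 0.94). Ace, Pam and Npr1 were nearest to Jam2 (0.99, 0.99 and 0.98).

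The partners of these proteins were followed with lists of 36 further junction genes and 16 barrier regulators, of which 51 were tested. Under cGAMP, 3 of the 36 junction genes were higher and 7 lower in normal ECs, 3 higher and 3 lower in MMTV-PyMT and 10 higher and 10 lower in implanted tumour ECs, with a median log2 change of -0.048, 0.059 and -0.069. The shares of all genes called higher and lower were those given above, 13.7% and 18.2%, 7.42% and 4.57%, and 20.3% and 18.8%. A list of 10 genes held cadherin-family members and catenins, and also Vcl, Ptprb and Ptprj. Of these 10, 0 were higher and 3 lower in normal, 0 and 0 in MMTV-PyMT and 3 and 2 in implanted tumour ECs. Jup, plakoglobin, was lower in implanted tumour ECs (-0.68 ± 0.086, adjusted p = 1.20e-05), and Pcdh12, an endothelial protocadherin, was lower in normal ECs (-0.82 ± 0.18, adjusted p = 0.00301).

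Tight junction membrane proteins other than the members gave 1 higher and 0 lower of 8 in normal ECs, 0 and 0 in MMTV-PyMT and 2 and 2 in implanted tumour ECs. Marveld2, or tricellulin, which belongs to the protein family of occludin, rose in normal (0.70 ± 0.21, adjusted p = 0.0186) and implanted tumour ECs (0.81 ± 0.21, adjusted p = 0.00633). Cldn1, or claudin-1, a claudin of many epithelia, rose in implanted tumour ECs by 1.75 ± 0.26 (adjusted p = 5.06e-05), from 12.04 to 16.4 FPKM under PBS to 35.9 to 64.9 under cGAMP, without overlap. In MMTV-PyMT tumour ECs Cldn1 did not pass, but its levels (18.8 to 20.2 FPKM under PBS, 27.0 to 39.6 under cGAMP) did not overlap either. Both genes are made in epithelium, and the part of epithelial transcripts in them was not tested. Scaffolds beside ZO-1 gave 0 higher and 2 lower of 10 in normal ECs, 0 and 2 in MMTV-PyMT and 3 and 4 in implanted tumour ECs. Magi3, a membrane-associated guanylate kinase scaffold, was lower in MMTV-PyMT tumour ECs (-0.40 ± 0.10, adjusted p = 0.0168).

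Other border adhesion genes gave 2 higher and 2 lower of 8 in normal ECs, 3 and 1 in MMTV-PyMT and 2 and 2 in implanted tumour ECs. Cd47, an integrin-associated protein, rose in implanted tumour ECs (1.45 ± 0.12, adjusted p = 7.38e-08), and Nectin1 fell (-0.80 ± 0.15, adjusted p = 0.000452). Levels of Cd47 in MMTV-PyMT tumour ECs were also higher under cGAMP without overlap (26.0 to 29.8 FPKM under PBS, 34.7 to 43.9 under cGAMP). Of 15 tested barrier regulators, 2 were higher and 6 lower in normal ECs, 3 and 2 in MMTV-PyMT and 5 and 1 in implanted tumour ECs. Sox18, an endothelial transcription factor, fell in normal (-1.06 ± 0.20, adjusted p = 0.000930) and implanted tumour ECs (-0.89 ± 0.20, adjusted p = 0.00221). Rasip1, which acts with the small GTPase Rap1 in junction stability, rose in normal (0.72 ± 0.18, adjusted p = 0.00585) and MMTV-PyMT tumour ECs (0.68 ± 0.18, adjusted p = 0.0196). As a check of treatment, all 6 interferon-induced genes listed for it rose in each tissue.

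Under PBS, 17 of the 36 junction genes were higher and 9 lower in MMTV-PyMT than in normal ECs, 13 and 6 in implanted than in normal ECs, and 12 and 9 in implanted than in MMTV-PyMT tumour ECs. All genes gave 29.8% higher and 26.6% lower, 25% and 23.6%, and 20.8% and 24.6% in these comparisons. Of the 8 further tight junction membrane genes, 5 were higher and 2 lower in MMTV-PyMT and 5 higher and 1 lower in implanted tumour ECs than in normal ECs. Cldn1 led with 2.12 ± 0.26 (adjusted p = 4.59e-06) and 1.73 ± 0.26 (adjusted p = 3.91e-05). Marveld2 was higher in MMTV-PyMT than in normal ECs (1.70 ± 0.21, adjusted p = 6.18e-06), and lower in implanted than in MMTV-PyMT tumour ECs (-1.11 ± 0.21, adjusted p = 0.000558), as Ocln and Epcam were. Epithelial markers gave 8 higher and 1 lower of 12 in MMTV-PyMT and 7 higher and 2 lower in implanted tumour ECs, against normal ECs. The part of epithelial transcripts in the tight junction counts was not tested. Barrier regulators gave 0 higher and 11 lower of 15 in MMTV-PyMT and 4 higher and 8 lower in implanted tumour ECs. Klf2, a factor induced by blood flow, was lower in MMTV-PyMT (-2.52 ± 0.24, adjusted p = 4.09e-07) and implanted tumour ECs (-1.82 ± 0.24, adjusted p = 1.32e-05). Angpt2, a ligand that loosens endothelial contacts, was higher in implanted than in normal (2.10 ± 0.19, adjusted p = 2.65e-07) and MMTV-PyMT tumour ECs (2.66 ± 0.19, adjusted p = 7.52e-08).

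Promoter sequences from RefSeq (GRCm38.p6) were held for 4 of the 8 genes, Ocln, F11r, Tjp1 and Cldn5. The 250 bases before the start are shown for the 3 genes that passed a cGAMP comparison, since these are the members whose transcripts moved with treatment. For Ocln they are chr13:100552719-100552968 on the minus strand, where the first of 2 RefSeq starts and the GENCODE start coincide. For F11r they are chr1:171437311-171437560 on the plus strand, before a RefSeq start that lies 26 bases downstream of the GENCODE start. For Tjp1 they are chr7:65371245-65371494 on the minus strand, which lies inside the GENCODE gene at a later RefSeq start. All 3 sequences are written in the direction of transcription, with matches to any of 6 motifs in capitals.
Ocln: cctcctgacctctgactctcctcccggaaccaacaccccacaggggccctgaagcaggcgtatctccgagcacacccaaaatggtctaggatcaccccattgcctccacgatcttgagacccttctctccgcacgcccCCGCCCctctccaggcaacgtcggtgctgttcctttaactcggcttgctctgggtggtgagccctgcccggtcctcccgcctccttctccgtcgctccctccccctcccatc
F11r: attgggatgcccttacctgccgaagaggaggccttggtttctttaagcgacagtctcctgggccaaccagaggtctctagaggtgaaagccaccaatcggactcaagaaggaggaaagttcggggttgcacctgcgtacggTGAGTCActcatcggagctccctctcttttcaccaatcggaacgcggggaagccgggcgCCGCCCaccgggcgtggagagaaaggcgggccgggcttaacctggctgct
Tjp1: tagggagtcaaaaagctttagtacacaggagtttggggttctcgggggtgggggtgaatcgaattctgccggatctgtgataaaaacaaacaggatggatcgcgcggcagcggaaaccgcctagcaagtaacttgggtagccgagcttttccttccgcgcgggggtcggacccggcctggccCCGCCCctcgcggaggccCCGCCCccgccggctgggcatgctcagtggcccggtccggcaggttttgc

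The motifs, searched on both strands, were AP-1 (TGACTCA or TGAGTCA), an interferon-stimulated response element core (GAAANNGAAA), GAS (TTCNNNGAA), ETS (CCGGAAG), SP1 (GGGCGG) and E-box (CACGTG). An SP1 motif was present in all 4 promoters, Cldn5 included, with 2 matches in Tjp1, and 32.9% of 27025 promoters of the same length held one. F11r held 1 AP-1 match, in capitals ahead of its SP1 match, which 4.43% of promoters held. The response element core, GAS, ETS and E-box letters, held by 3.04%, 7.18%, 7.05% and 6.05% of promoters, were not in these 4 windows. A match is a description of letters and not of a site in use.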

How the data were processed

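Bulk RNA-seq was performed on sorted ECs in 18 libraries, 3 for each of 6 groups. Libraries were directional and read in pairs, and the authors checked reads with FastQC, aligned them to mm10 with STAR 2.7 and counted them per gene with HTSeq. Whether counting used strand, and how FPKM were made, is not given in the sources used here. The deposited FPKM table lists 16248 genes and holds no value of 0, so a gene absent from it was not analysed here. Its columns named only for control and STING treatment were taken as normal ECs, the one tissue left without columns, and 0 columns matched no sample. Whole reads were recovered for 100% of genes (tolerance 0.01), which gave the depths and showed scaling by median-of-ratios size factors. One read on 1 kb was worth at most 0.12 FPKM. Intervals cover the spread between libraries.

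Genes with FPKM of at least 1 in at least 3 libraries (13983, leaving out 2265) were tested with limma 3.58.1 in R 4.3.3 on log2(FPKM + 1), with 1 mean per group over all 18 libraries (12 residual degrees of freedom), a trended prior and Benjamini-Hochberg adjustment over all tested genes, 2-sided. The difference of the cGAMP effect between tissues was tested as an interaction. Fold changes on this scale understate changes of low genes. The scripts were tested on simulated data. Alternatives were a pseudocount of 0.1, no filter, a mean FPKM of at least 5, quantile normalization, scaling by total reads, limma-voom on recovered reads, a fit of the compared groups alone, the replicate number as a block, and leaving out each of 18 libraries, 26 in all. Gene positions are from GENCODE M21 on GRCm38 (mm10), where no exon of the 8 genes overlapped an exon of another annotated gene.

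The members, gene lists and markers were chosen with earlier results of these data known. The 8 members were always named, with the 3 partner genes of the largest passing rises and falls in each comparison eligible to be named, the 3 genes of highest Pearson's r for each member (those of F11r are not reported here), and defining cell type markers.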

Additional observations from a re-analysis of the deposited data

Results flagged for a closer look

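The cGAMP effect on 2 of the junction genes differed between implanted tumour and normal ECs by the interaction test in limma, with all 18 libraries in the fit. For Tjp1 the difference was 0.67 ± 0.18 (log2, SE, adjusted p = 0.0152), made of a change of 0.13 in implanted tumour ECs and -0.54 in normal ECs, and it did not pass under quantile normalization (adjusted p = 0.126) or scaling by total reads (adjusted p = 0.105). For F11r the difference was 0.83 ± 0.17 (adjusted p = 0.00254), made of 0.86 in implanted tumour ECs, higher in 3 of 3 cGAMP libraries, and 0.028 in normal ECs.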

How the results depend on the processing

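Of the 23 member results that passed, none turned its direction in the 26 alternatives, and 20 passed in all of them. The exceptions were Cdh5 in implanted against normal ECs, the Tjp1 difference of the cGAMP effect between implanted tumour and normal ECs, and Jam2 between the tumour types. Scaling by total reads moved the median of all genes under cGAMP to -0.25 in implanted and -0.14 in MMTV-PyMT tumour ECs, and to -0.13 in implanted against normal and against MMTV-PyMT tumour ECs under PBS. The cause of the changes below was not tested.

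The count of members passing under cGAMP in MMTV-PyMT tumour ECs was 1 rather than 0 under quantile normalization, scaling by total reads, voom and the compared groups alone, and 0 to 3 when 1 library was left out (3 without implanted cGAMP replicate 1). In implanted tumour ECs it was 5 rather than 2 under quantile normalization, 3 under scaling by total reads (with Cldn5), and 2 to 5 with 1 library left out (5 without implanted cGAMP replicate 2). Implanted against normal ECs gave 6 rather than 4 under scaling by total reads, with Pecam1 and Tjp1. MMTV-PyMT against normal ECs gained F11r with the compared groups alone and without implanted cGAMP replicate 1 or replicate 2. The difference of the cGAMP effect gave 1 rather than 0 for MMTV-PyMT minus normal under quantile normalization and with the compared groups alone, and 0 to 2 with 1 library left out (2 without implanted cGAMP replicate 1). It gave 1 rather than 2 for implanted minus normal under scaling by total reads (2 to 3 with 1 library left out, 3 without implanted cGAMP replicate 2, where Pecam1 passed at an adjusted p of 0.0401), and 1 rather than 0 for implanted minus MMTV-PyMT under the filter on a mean FPKM of 5, and 0 to 1 with 1 library left out.

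Directions turned only for results that had not passed. Under quantile normalization and then scaling by total reads, the cGAMP change in implanted tumour ECs was -0.26 and -0.012 for Pecam1, -0.28 and -0.18 for Tjp1, -0.47 and -0.25 for Esam and -0.099 and -0.21 for Jam2, and for Cdh5 it was -0.17 under quantile normalization. The Tjp1 and Esam values passed under quantile normalization (adjusted p = 0.0478 and 0.00637). F11r in normal ECs was -0.059 under quantile normalization, and Esam in implanted against normal ECs -0.093 under scaling by total reads.

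The difference of the cGAMP effect, implanted minus normal, was -0.28 and -0.067 for Cdh5, -0.35 and -0.26 for Cldn5, -0.12 and -0.22 for Ocln and -0.54 (adjusted p = 0.0401) and -0.25 for Esam under the same settings. Implanted minus MMTV-PyMT gave -0.39 and -0.15 for Cdh5, -0.49 and -0.17 for Pecam1, -0.21 and -0.044 for Tjp1 and, under quantile normalization, -0.026 for Cldn5. Esam was -0.0027 for MMTV-PyMT minus normal under quantile normalization.

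Leaving out 1 library spanned 0 for Cdh5 (-0.083 to 0.059) in MMTV-PyMT against normal ECs and Esam (-0.011 to 0.17) in implanted against normal ECs. Under cGAMP it did so for Esam (-0.066 to 0.055) and F11r (-0.017 to 0.071) in normal, Tjp1 (-0.058 to 0.069) in MMTV-PyMT, and Esam (-0.051 to 0.20) and Jam2 (-0.12 to 0.20) in implanted tumour ECs. For implanted minus normal the ranges were -0.25 to 0.29 for Cldn5, -0.060 to 0.34 for Ocln and -0.058 to 0.19 for Esam, and for implanted minus MMTV-PyMT -0.19 to 0.21 for Cdh5, -0.18 to 0.13 for Pecam1 and -0.0049 to 0.53 for Cldn5.

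Same-numbered libraries correlated in their deviations from group means with a median r of -0.013 over 45 pairs (-0.345 to 0.294). The median was 0.0097 over 90 pairs of other numbers, and 5 of 18 libraries correlated best with their own number. These values cannot show whether a number stands for a shared experiment. With the replicate block the counts passing were 2, 0 and 2 under cGAMP in normal, MMTV-PyMT and implanted tumour ECs, 6, 4 and 6 between tissues, where Jam2 no longer passed between the tumour types, and 0, 2 and 0 for the differences. Depth limits Ocln most, with 133 to 1009 reads per library.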
